A study of Sus scrofa with 180 samples.

Results

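The Longissimus muscle (LM) of 90 pigs was described on its own, from the 90 arrays that the labels give to this muscle out of 180 arrays in all. The other 90 arrays hold the Semimembranosus muscle (SM) of the same pigs and were used only to check labels and to look for values shared by a pig. The animals were females and barrows, that is castrated males, of an F2 intercross between a Pietrain-type sire line and a synthetic line whose founders were Duroc, Hampshire and Large White, and no group was treated. The labels give the pig, the muscle and the number of the slide of each array, not the sex, the sire or the weight, and each pig has 1 array in LM. Per the study's methods, all pigs were homozygous wild type at the HAL and RN loci. The study states that they formed half-sib families of 41 and 49 animals. Hybridization batches were nested within the sire, so slide and family cannot be told apart within LM.

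Longissimus is a long back muscle and gives the loin. It is made mostly of fast fibres that burn glycogen, with fewer slow fibres rich in myoglobin and mitochondria, and between the fibres lie fat cells, connective tissue, vessels and resident immune cells. A sample of the whole muscle mixes the RNA of all of these, and fewer cells of a type and less RNA per cell cannot be told apart. RNA taken after slaughter also carries the early response genes and chaperones that cells raise within minutes of stress. Each value below is the log2 of the processed signal of a probe minus the median of its array, called here the centred signal, so that 0 is the median probe of that array and a difference of 1 is a doubling.

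Of 15198 probes on the custom pig muscle array, 12686 gave a usable spot on more than 50% of the LM arrays. Of these, 3964 probes of 3478 genes have a symbol in the study's lists, which hold only genes that the study called different between the muscles, and 8722 probes were used without one. The copy of 1 of these lists used here was shortened, so some of the 8722 may have a symbol in the whole list, and each rank among named genes below covers only the 3964 probes. The median signal of an array ranged from 171 to 304 with a median of 216, and from 69.2% to 99.9% of the probes of an array were read above background. The markers of muscle fibres matched the label: ACTA1 (skeletal actin) was the 33rd brightest of the 12686 probes, MYH1 (the myosin heavy chain of fast fibres) the 113th, NEB (nebulin) the 453rd, MYL1 (a fast light chain) the 564th and TTN (titin) the 742nd, while the probe of CKM (muscle creatine kinase) was the 5332nd. All 3 adipocyte markers, all 4 macrophage markers and both leucocyte markers ranked between 6728th and 10087th. Markers of other cells outside the fibres ran from bright to dim: the brightest probe of HBA2 (an alpha globin) ranked 1498th, the endothelial genes CLDN5, VWF, CDH5 and PLVAP between 2495th and 6211th, and of the smooth muscle genes ACTA2 ranked 48th, CNN1 1140th and MYH11 10130th. After removal of slide means, this ACTA2 probe had a Pearson correlation of 0.83 with MYH1. Its median correlation with the other vessel smooth muscle genes was -0.05. Its rank is thus not read as abundance of smooth muscle, and which transcripts it reads was not tested. Ranks order probes, whose affinities differ, and not transcripts. The array farthest from the probe means was LM replicate 87, with a root mean square distance of 0.62 against a median of 0.36.

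The probes on which the results turn are printed first, each 60 bases long, as the scanner's output gives them, 5′ to 3′. The positions of these probes in the pig genome were not analysed here. The following 4 probes without a symbol divided the 90 arrays into 2 sets.

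CB286695.1_1794: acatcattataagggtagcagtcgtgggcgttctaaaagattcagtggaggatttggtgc

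AJ938358.1_528: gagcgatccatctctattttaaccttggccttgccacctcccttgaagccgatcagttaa

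CF792920.1_1114: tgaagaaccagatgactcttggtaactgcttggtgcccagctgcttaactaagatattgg

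CF175718.1_2364: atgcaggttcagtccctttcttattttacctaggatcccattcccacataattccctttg

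One more probe without a symbol followed the LM slides.

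BQ598889.1_523: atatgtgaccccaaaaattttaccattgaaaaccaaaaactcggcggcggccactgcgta

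The probes of 3 contractile genes of developing or cardiac muscle, MYH3, MYH8 and TNNT2, varied together.

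MYH3: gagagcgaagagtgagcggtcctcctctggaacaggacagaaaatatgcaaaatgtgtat

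MYH8: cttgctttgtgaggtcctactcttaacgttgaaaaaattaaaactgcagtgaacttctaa

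TNNT2: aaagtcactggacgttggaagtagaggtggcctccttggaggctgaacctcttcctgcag

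Among the brightest named probes, a pair with many C in the first 15 bases varied more than the rest. Capitals mark each C of those 15 bases, in that pair (OXT and MFAP2) and in a pair that varied little (DUSP12 and ACTA1).

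OXT: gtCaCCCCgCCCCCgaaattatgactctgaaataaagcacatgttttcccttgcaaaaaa

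MFAP2: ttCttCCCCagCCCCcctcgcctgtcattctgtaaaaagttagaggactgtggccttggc

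DUSP12: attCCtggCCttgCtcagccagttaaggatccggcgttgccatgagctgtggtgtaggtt

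ACTA1: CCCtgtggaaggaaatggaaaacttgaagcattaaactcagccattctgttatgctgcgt

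The probe of highest spread bears on the labels and is given before the other results. CB286695.1_1794 lay between -1.33 and 0.20 on 41 arrays and between 4.59 and 6.08 on the other 49, with no array in between. AJ938358.1_528 and CF792920.1_1114 were low on the same 41 arrays, the former between -1.66 and -0.44 against 1.36 to 2.47 and the latter between 0.43 and 1.101 against 2.45 to 3.22. CF175718.1_2364 ran the opposite way, between 1.95 and 2.56 on those 41 arrays and between -2.29 and -1.46 on the 48 others where its spot was usable. The division was thus the same for all 4 probes, and 17 slides held arrays of both sets. CXORF15 and TMEM27, on the X chromosome in human, and EIF1AY, on the Y, were chosen after their values were seen. They ran higher on those 41 arrays but with ranges that overlapped, for example -1.28 to -0.25 against -1.96 to -0.51 for CXORF15. The overlap held 62 arrays for CXORF15, 65 for TMEM27 and 72 for EIF1AY. The X and Y genes thus ran the same way. The labels do not say which pigs were female, and no array was given a sex here.

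In SM, CB286695.1_1794 divided the arrays in the same way, into 36 low arrays (up to 0.43) and 54 high arrays (from 2.99). The SM array labelled with the same pig was on the same side as the LM array in 43 of the 90 pigs and on the other side in 47, so the probe did not follow the pig across the muscles as labelled. Across 10980 probes, after removal of slide means, the LM and SM arrays labelled with 1 pig had a median Pearson correlation of -0.00413 in 89 pairs, against -0.000591 between arrays of different pigs, and the LM array was closest to the SM array of its own label in 1 pig. Correlations across probes within a pair of arrays describe those arrays, and probes are not independent. The same question was put to 29 named genes and probes across pigs, where none of the Pearson or Spearman correlations between LM and SM passed an adjusted p of 0.05 (100000 permutations, two-sided). At an unadjusted p under 0.05 there was 1 Pearson and 0 Spearman correlations. That one was ADAMTS8, with r = -0.27 (permutation p = 0.0098, adjusted p = 0.284) and rho = -0.19 (permutation p = 0.0731, adjusted p = 0.947) over 89 pigs, and r = -0.18 without the 2 pigs farthest from the median. Why these values were not shared within the labelled pairs was not tested. A probe that followed the LM slides, BQ598889.1_523, was mostly on the same side in both arrays of a labelled pair, as given in the next paragraph. The results that follow lie within LM and use the slide label, and the pig label enters only where an SM array is named.

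**Figure D1:**
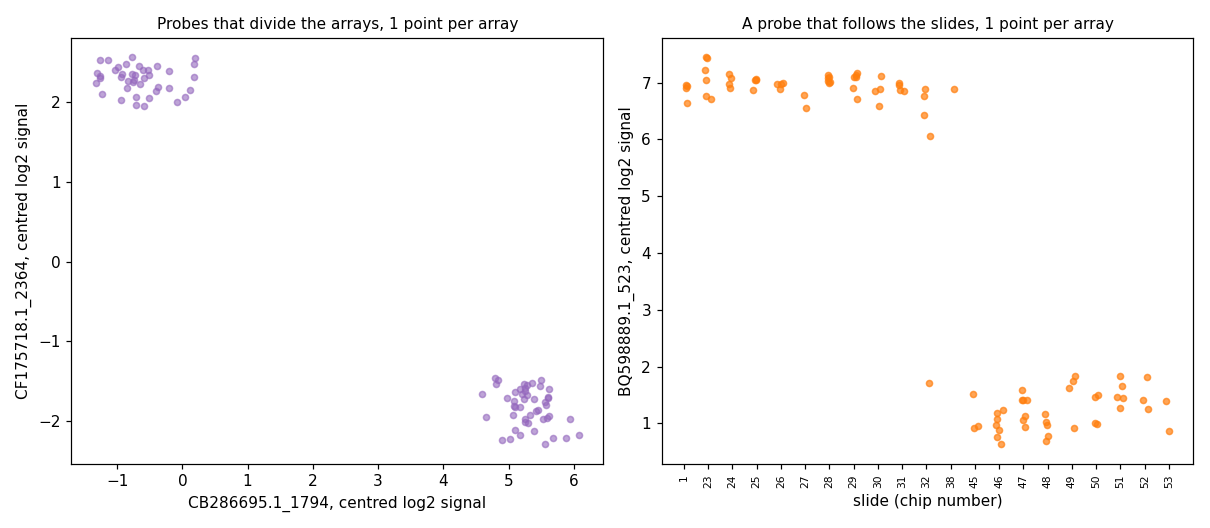
Centred log2 signal of probes that divide the 90 LM arrays, 1 point per array. On the left, CF175718.1_2364 (vertical axis) against CB286695.1_1794 (horizontal axis) shows 41 arrays at the upper left and 48 at the lower right with none between. On the right, BQ598889.1_523 is plotted against slide number, with all arrays of slides 45 to 53 below 2 and all but 1 array of the other slides above 6.

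Slides accounted for a large part of the spread. A median of 39.4% of the variance of a probe lay between the 21 slides, where 22.5% would lie there if arrays differed no more between slides than within them. With limma's moderated F test, 7876 of the 12686 probes (62.1%) differed between slides at an adjusted p of 0.05 or less. The share called was alike from dim to bright probes, between 59.6% and 65.0% in each of 5 classes of equal size by brightness. The named genes with the highest shares between slides, SGK223 (97.5%), RPTOR (96.6%), FLNA (95.3%), ITPKA (94.3%) and RPL21 (93.6%), were all dim, with means between -1.57 and -0.87. SGK223 is a pseudokinase, RPTOR the raptor subunit of the mTOR complex, FLNA an actin crosslinker, ITPKA an inositol kinase and RPL21 a ribosomal protein. The probe BQ598889.1_523 lay between 0.63 and 1.84 on each of the 40 arrays of slides 45 to 53 and between 6.06 and 7.45 on 49 of the 50 arrays of the other slides, and 1 array of slide 32 was at 1.72. It divided the LM arrays by slide, unlike the 4 probes above. In SM it lay on the same side as in the LM array labelled with the same pig in 83 of the 90 pigs. The SM arrays lay on other slides, some of which held pigs of both sets of LM slides. Agreement of the side does not show that a labelled pair came from 1 pig, since labels exchanged within a set would give the same count. Whether it followed the family was not tested. In what follows the spread of a gene is its SD within slides, which removes slide and with it any family difference that follows the slides. As each pig has 1 array, this SD holds the error of the array as well as the difference between animals, and the p values measure the spread between these samples.

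The brightest named probes were those of contractile and sarcomere genes and some whose names are not those of muscle genes. In descending order they were DUSP12, TCAP, ACTA1, CD2BP2, ACTA2, AMDHD1, VWA3A, OXT, IGFN1 and MFAP2, with means from 10.92 to 9.65. TCAP (telethonin, which caps titin at the Z-disc) ranged from 9.98 to 11.34 over 83 arrays with a median of 10.72, and ACTA1 from 10.22 to 11.13 over 88 arrays with a median of 10.73. IGFN1, an immunoglobulin-like protein of the Z-disc, ranged from 9.16 to 10.36 over 83 arrays. The probes named DUSP12 (a phosphatase), CD2BP2 (a splicing factor), AMDHD1 (an enzyme of histidine breakdown), VWA3A and OXT (the hormone oxytocin) carry names that the study gave by sequence similarity. The other 4 probes of CD2BP2 had means between -1.81 and 0.92, far below the 10.66 of the bright probe, so the probes given to this gene differed. ACTA1 had another probe at 9.55 and ACTA2 (smooth muscle actin) one at 7.91. From 2 to 11 arrays were saturated for each of these 10 probes and were left out, so their means are lower bounds of the brightness and their ranges and SDs leave out the brightest readings.

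Over the arrays that were not saturated, the SD of 8 of these 10 probes lay between 0.09 and 0.22, while OXT had 0.41 and MFAP2 (a microfibril protein of elastic fibres) 0.53. OXT has 10 C in its first 15 bases and MFAP2 has 9, and the other 8 probes have between 1 and 7. Among the 1000 brightest probes, the 59 with 8 or more C in that stretch had a median SD of 0.57, and the 311 with 2 or fewer had 0.19. The spread of bright probes thus differed with their base composition. The contrast between C-rich probes (8 or more C) and C-poor probes (2 or fewer) on each array is called the C index below, and counts are given with it as an added term where it changed them by over 1.5 times.

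**Figure D2:**
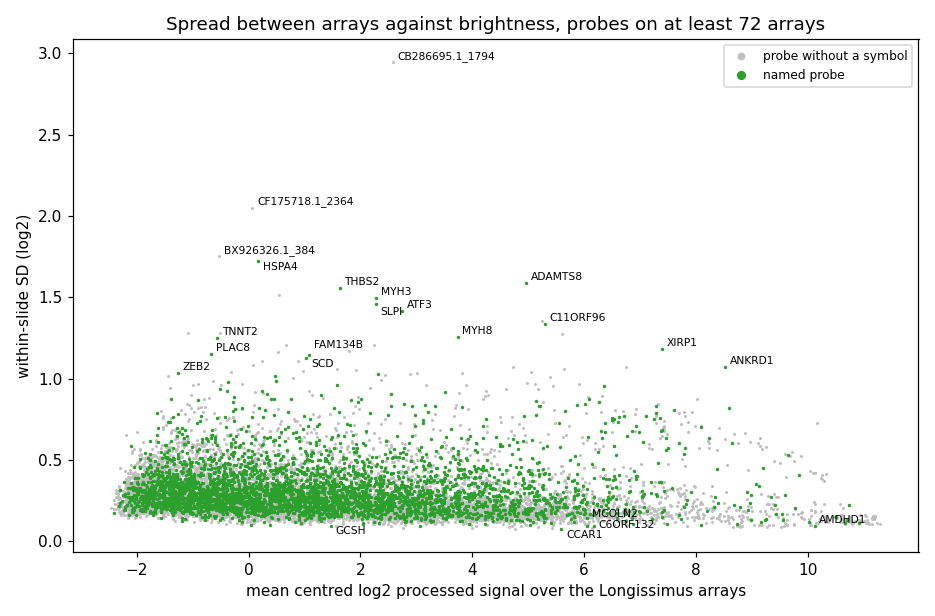
Within-slide SD (log2) against the mean centred log2 signal over the 90 LM arrays for 11481 probes present on at least 72 arrays, with named probes in green and the others in grey. The bulk of the probes lie below an SD of 0.6 at every brightness, and the labelled probes stand above 1 or are the 5 named genes of lowest SD.

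Over all 12686 probes the median SD within slides was 0.26, and 90% of the probes lay between 0.14 and 0.58. It was 0.30 in the dimmest of the 5 classes and 0.20 in the brightest. An SD over 1 was found for 47 probes, among them 17 named genes. The named gene of lowest SD was CCAR1, a regulator of the cell cycle and apoptosis, which ranged from 5.34 to 5.90 over 90 arrays (SD 0.08), a ratio of 1.47 between the highest and the lowest array. GCSH (of the glycine cleavage system), MCOLN2 (an ion channel of endosomes), AMDHD1 and C6ORF132 followed with SDs of 0.09 each, that of AMDHD1 without its 7 saturated arrays.

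The 15 named genes of highest SD included contractile genes of developing muscle, genes of mechanical and acute stress, a lipid enzyme and secreted proteins. MYH3, the embryonic myosin heavy chain, ranged from -0.57 to 6.76 with a median of 2.09 over 90 arrays (SD 1.498), a ratio of 161 between the highest and the lowest array. MYH8, the perinatal heavy chain, ranged from 0.82 to 7.51 with a median of 3.60 (SD 1.26). TNNT2, cardiac troponin T, which developing skeletal muscle also makes, ranged from -2.47 to 3.54 with a median of -0.65 over 87 arrays (SD 1.25). None of the 3 genes had a gap of more than 1 between neighbouring arrays, and 8 arrays of MYH3, 7 of MYH8 and 8 of TNNT2 were more than 2 above the median.

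Stress and load genes formed a further group. ANKRD1, a titin-binding protein that rises with stretch, ranged from 5.79 to 10.45 with a median of 8.67 over 88 arrays (SD 1.07), and XIRP1, a protein of damaged and remodelled myofibrils, from 4.57 to 9.77 with a median of 7.63 over 89 arrays (SD 1.18). ATF3, a transcription factor induced by stress, ranged from -1.59 to 5.19 with a median of 2.86 (SD 1.41). C11ORF96 ranged from 1.49 to 8.36 with a median of 5.41 (SD 1.34). The probe named HSPA4, a chaperone, had the highest SD of all named genes at 1.73 and ranged from -2.64 to 6.13 with a median of -0.34, and its upper tail held 19 arrays more than 2 above the median.

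ADAMTS8, a secreted metalloprotease, ranged from -1.85 to 7.76 with a median of 5.03 (SD 1.59). Its lowest value was that of LM replicate 87, and without that array its SD was 1.39. THBS2, a matrix protein that restrains vessel growth, had its largest gap near the middle, with 46 arrays between -1.16 and 0.66 and 44 between 1.51 and 5.36. These values are not corrected for slide, and 50.0% of the variance of THBS2 lay between slides (moderated F test, adjusted p = 0.000159). SLPI, a protease inhibitor of mucosa and neutrophils, ranged from -0.40 to 4.70 with a median of 2.26 (SD 1.46). SCD, the enzyme that makes monounsaturated fatty acids, ranged from -1.11 to 4.98 with a median of 0.87 over 89 arrays (SD 1.13). FAM134B, a receptor for autophagy of the endoplasmic reticulum, had an SD of 1.15 around a median of 1.02, and PLAC8, an interferon-responsive protein, an SD of 1.15 around a median of -1.11 with 14 arrays more than 2 above it.

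ZEB2, a repressor of epithelial genes, was different in kind. A single array, LM replicate 30, stood at 7.46, and the next highest was at -0.36. Without it the SD fell from 1.04 to 0.30, so the place of ZEB2 among these genes rests on 1 array. The SM array labelled with that pig was at -1.39. Among the probes without a symbol, BX926326.1_384 (SD 1.76) ranged from -2.57 to 6.32 with a median of -1.09 over 80 arrays.

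Genes that varied together were described around 14 genes, each standing for a cell type or process. For each, every other probe was fitted with limma on the value of that gene and slide, and a slope is the change in log2 signal per within-slide SD of that gene. Across all named genes, the correlation of the residuals of a pair of genes had a median of -0.000857, and 90% of pairs lay between -0.30 and 0.35, which is the background for the lists below. The 14 genes were not all separate from each other. The highest correlations among them were 0.79 for ANKRD1 with HSPB1 and 0.58 for HLA-DRA with MX1, so the counts with such a pair are not independent results. The number of probes called with a gene depended strongly on the processing, so the lowest and highest totals under 14 other settings are given with each gene. The settings that moved totals most were normexp, another way to correct the background from the raw signal of each spot, centring on the median of the usable spots alone, and leaving out the slide term.

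ADIPOQ, adiponectin, marks fat cells. Its centred signal ranged from -1.59 to 3.89 with a median of 0.51 over 90 arrays (SD 1.02). Of 12685 probes, 131 rose with it (1.03%) and 33 fell (0.26%) at an adjusted p of 0.05 or less, 164 in all, against 49 on usable-spot centring and 245 with slide as a random block. PLIN1, the coat protein of the lipid droplet, rose by 0.91 per SD of ADIPOQ (SE 0.03, adjusted p = 7.65e-36), ALDOC (brain-type aldolase) by 0.65 (SE 0.04, adjusted p = 1.43e-24), CIDEC (which fuses lipid droplets) by 0.78 (SE 0.05, adjusted p = 5.84e-22) and CEBPA (a master regulator of fat cells) by 0.50 (SE 0.05, adjusted p = 6.00e-10). Of the 13 other adipocyte genes 4 rose, PLIN1, CIDEC, CEBPA and DGAT2 (the last step of triglyceride synthesis), and 0 fell. The other 9 did not pass, among them LPL, CFD and PNPLA2, with slopes of 0.01, 0.06 and -0.03. SCD had a slope of 0.36 (SE 0.13, adjusted p = 0.142). The adipocyte list as a whole had a median correlation of 0.14, and 56 of its 89 pairs were positive. PLIN1 ranged over 81 arrays from -2.99 to 2.14 and was too dim to be read on 9. CEBPA was too dim on 17 arrays and DGAT2 on 38. When only probes on at least 90% of arrays were kept, 2 adipocyte genes rose, the fewest of any setting. LPL (lipoprotein lipase) ranged from 8.77 to 9.74 over 83 arrays and was saturated on the other 7, which were left out of its range and slope. Of the 19 matrix genes 4 also rose with ADIPOQ. Without the 2 arrays farthest from its median, LM replicates 12 and 42, 87 probes rose and 23 fell, with 3 of the 13 adipocyte genes and 2 of the 19 matrix genes rising.

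COL1A2, a chain of type I collagen, marks the connective tissue. It ranged from 1.25 to 5.68 with a median of 3.96 over 90 arrays (SD 0.50), and the lowest array was LM replicate 87, 1.32 below the next. With it, 366 probes rose (2.89%) and 725 fell (5.72%), 1091 in all, with a range over the other settings from 274 (deposited table) to 2925 (no slide term). The nearest named genes were SLC22A17 (a lipocalin receptor; slope 0.22, SE 0.01, adjusted p = 4.28e-20), COL16A1 (0.32, SE 0.02, adjusted p = 4.40e-20), ABI3BP (a matrix protein; 0.29, SE 0.02, adjusted p = 1.26e-19) and COL6A3 (0.21, SE 0.02, adjusted p = 2.70e-16). Of the 18 other matrix genes 13 rose and 0 fell, among them FMOD (fibromodulin, which spaces collagen fibrils) by 0.66, FN1 (fibronectin) by 0.41, TNC (tenascin C) by 0.41 and LUM (lumican) by 0.23. COL4A1, FBLN1, LOXL1, PCOLCE and TIMP1 were not called. The median correlation of the matrix list was 0.27, against -0.000857 over all pairs of named genes, and 147 of its 171 pairs were positive. The 0.27 lies inside the range that holds 90% of single pairs. Without LM replicate 87 the counts over all probes were 226 and 169, and 11 of the 18 matrix genes rose, and without LM replicates 87 and 53, the 2 farthest from the median of COL1A2, they were 195 and 112, with 10 of the 18. PCOLCE, which trims procollagen, differed by probe, since 1 of its probes rose by 0.33 (SE 0.03, adjusted p = 3.39e-16) while the brightest, used for the list, was not called. ACTR1A, of the dynactin complex, fell by 0.13 (SE 0.02, adjusted p = 1.88e-05).

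Of the slow-fibre genes 5 of 9 rose with MYL2, while the count of fast-fibre genes that rose with MYH1 depended on the scaling. MYL2, the slow light chain, ranged from 2.87 to 5.07 with a median of 3.97 over 90 arrays (SD 0.43), and 39 probes rose with it (0.307%) while 6 fell (0.0473%). These 45 became 41 in the deposited table and 4210 with normexp. The 5 slow oxidative genes that rose, with 0 of the 9 falling, were TNNI1 (slow troponin I) by 0.19 (SE 0.03, adjusted p = 1.74e-05), LDHB (the heart form of lactate dehydrogenase) by 0.16 (SE 0.03, adjusted p = 1.70e-05), MYL6B by 0.36 (SE 0.06, adjusted p = 3.39e-05), ATP2A2 (the slow calcium pump) by 0.19 and PLN (phospholamban, its inhibitor) by 0.19. Between 4 and 8 of the 9 rose under the other settings. SURF1 and MRPS6, needed for respiratory complex IV and mitochondrial translation, also rose, by 0.19 and 0.25. Without LM replicate 87, 56 probes rose and 14 fell, and 5 of the 9 slow genes rose, and with the C index 46 rose and 10 fell. CASQ2, CSRP3 and ANKRD2 were not called, and MB, myoglobin, had a slope of 0.12 (SE 0.03, adjusted p = 0.0728). The slow list had a median correlation of 0.39, with 41 of 45 pairs positive, and the fast glycolytic list 0.18, with 49 of 66 positive.

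MYH1, the fast heavy chain, ranged from 9.13 to 10.09 with a median of 9.52 over 84 arrays (SD 0.17). With it 800 probes rose (6.36%) and 116 fell (0.922%), but 0 of the 11 other fast glycolytic genes was called by limma in either direction, and 4 rose at an unadjusted p under 0.05. At that unadjusted p, 2423 of all 12579 probes tested passed in either direction. The count of fast genes called turned on the scaling: 9 of the 11 rose with normexp background correction, 7 when arrays were centred on their usable spots alone, and 2 after quantile normalization. With normexp 9211 probes were called in all, most of those kept. Usable-spot centring also raised the calls summed over all fits, as given at the end. Neither the 9 nor the 7 of 11 can thus be read as particular to the fast genes. The nearest named probes were bright ones, ACTA2 (slope 0.14, SE 0.01, adjusted p = 4.32e-12), DUSP12, ACTA1, CD2BP2 and AMDHD1. With the C index as an added term, the counts were 350 and 27, the lowest total of any setting (377), and normexp gave the highest (9211). Within the fast list, PRKAG3, the muscle subunit of the AMP-activated kinase known for its effect on glycogen in pig muscle, ranged from -1.02 to 2.60 with a median of 0.09 over 90 arrays (SD 0.87), and PVALB, the calcium buffer of fast fibres, from -0.20 to 5.57 with a median of 3.19 over 89 arrays (SD 0.84).

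Contractile genes of development moved as a group of 3. With MYH3, 95 probes rose (0.749%) and 50 fell (0.394%), 145 in all, and 282 with slide as a random block. TNNT2 rose by 1.14 per SD of MYH3 (SE 0.07, adjusted p = 2.32e-22) and MYH8 by 0.77 (SE 0.12, adjusted p = 2.49e-05). These were 2 of the 6 other genes of the developmental list, and 0 fell. The others, TNNI3, MYOG, NCAM1 and MYBPH, were not called, and the list had a median correlation of 0.03. DCLK1 (a microtubule-associated kinase), PADI2 (which turns arginine into citrulline) and S100A6 (calcyclin) also rose with MYH3, by 0.39, 0.31 and 0.37. Without the 2 arrays farthest from the median of MYH3, LM replicates 80 and 63, the counts fell to 20 and 4, the lowest total of any setting, and TNNT2, MYH8, DCLK1, PADI2 and S100A6 were still called.

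With ANKRD1, the stretch-responsive titin partner, 1349 probes rose (10.7%) and 647 fell (5.11%). The total of 1996 ranged from 1219 in the deposited table to 2608 without a slide term. XIRP1 rose by 1.07 per SD of ANKRD1 (SE 0.06, adjusted p = 1.15e-22), HBEGF (a growth factor released by injured cells) by 0.69 (SE 0.05, adjusted p = 4.88e-18), AMD1 (of polyamine synthesis) by 0.48 (SE 0.04, adjusted p = 7.62e-15), C11ORF96 by 1.08 (SE 0.09, adjusted p = 1.07e-14) and NEXN (nexilin of the Z-disc) by 0.33 (SE 0.03, adjusted p = 3.08e-13). Of the 13 other genes of the titin and Z-disc list 4 rose, XIRP1, XIRP2, LMOD2 and NEXN, and 0 fell. TTN, NEB, TCAP and LDB3 did not pass, with the difference of their slopes from that of XIRP1 not tested. Of the heat shock genes 12 of 15 rose and 0 fell, and of the early response genes 11 of 23 rose and 1 fell. ZDHHC8 (a palmitoyl transferase) fell by 0.18 (SE 0.03, adjusted p = 1.43e-07), and PIK3IP1, an inhibitor of phosphoinositide 3-kinase, by 0.15 (SE 0.02, adjusted p = 6.29e-07).

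HSPB1, the small heat shock protein 27, ranged from 5.52 to 8.60 with a median of 6.91 over 87 arrays (SD 0.71), and 1238 probes rose with it (9.79%) while 548 fell (4.33%). The total of 1786 ranged from 1010 in the deposited table to 3411 with normexp. Of the 14 other heat shock genes 10 rose and 0 fell, among them HSPB8 by 0.39 (SE 0.03, adjusted p = 4.91e-19), HSP90AA1 by 0.31, STIP1 (which links the large chaperones) by 0.29 and HSPB7 by 0.36. The list had a median correlation of 0.36, with 93 of 105 pairs positive. Of the titin and Z-disc genes 6 of 14 rose with HSPB1 and 0 fell, and of the early response genes 6 of 23 rose and 1 fell. The probes named GMPPB (an enzyme of GDP-mannose synthesis) and ASAP1 (a regulator of Arf) followed HSPB1 most closely, with slopes of 0.49 (SE 0.01, adjusted p = 4.68e-40) and 0.60 (SE 0.02, adjusted p = 1.74e-36). Whether these probes read HSPB1 was not tested. TBC1D8, a GTPase activator, fell by 0.35 (SE 0.05, adjusted p = 5.36e-08).

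FOS, the immediate early transcription factor, ranged from 2.39 to 7.26 with a median of 5.34 over 90 arrays (SD 0.83), and 39 probes rose with it (0.307%) while 29 fell (0.229%). These 68 became 35 in the deposited table and 1753 with normexp. Of the 22 other early response genes 7 rose and 0 fell, namely BTG2 (an antiproliferative gene) by 0.52 (SE 0.06, adjusted p = 7.07e-08), KLF2 (a factor induced by blood flow) by 0.27 (SE 0.04, adjusted p = 4.69e-07), ATF3 by 0.67, CTGF (connective tissue growth factor) by 0.28, ID1 by 0.22, ID3 by 0.13 and RHOB by 0.11. DDIT4, which is induced by glucocorticoids and low oxygen, had a slope of -0.21 (SE 0.07, adjusted p = 0.276). The list had a median correlation of 0.16 and held pairs from -0.60 to 0.72. Without the 2 arrays farthest from the median of FOS, LM replicates 14 and 54, 5 of the 22 rose, and without a slide term 13 rose and 1 fell.

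**Figure D3:**
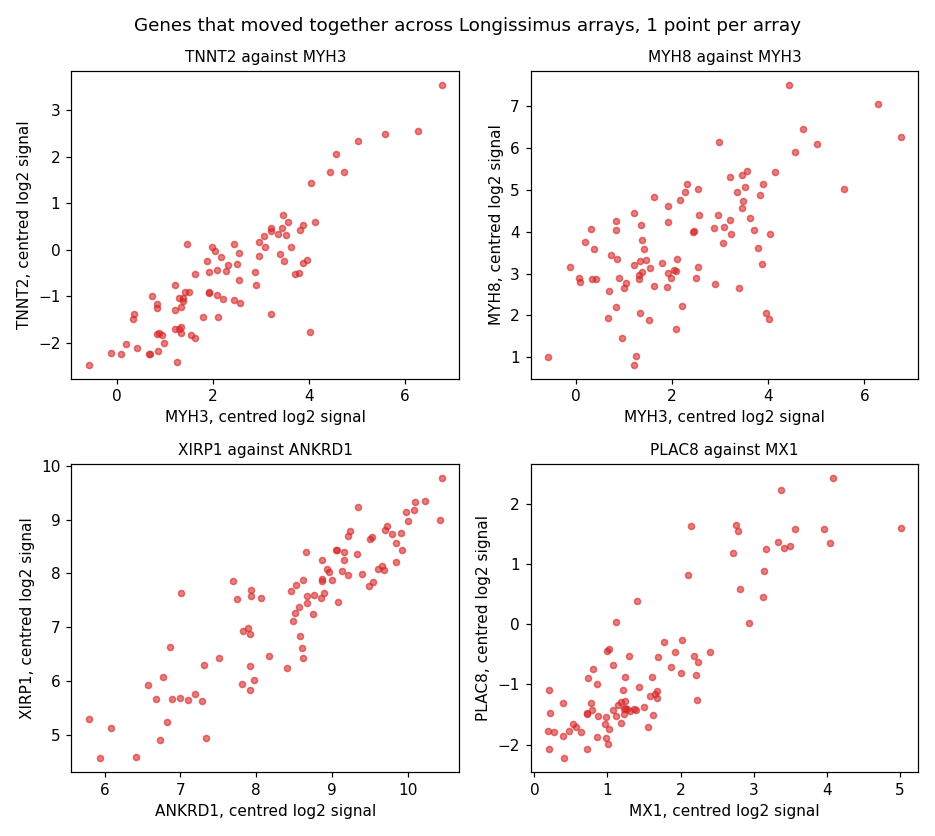
Centred log2 signal of pairs of genes, 1 point per LM array where both were usable, without correction for slide: TNNT2 and MYH8 against MYH3, XIRP1 against ANKRD1 and PLAC8 against MX1. In each panel the gene on the vertical axis rises with the gene on the horizontal axis, and the highest values of MYH3 and MX1 are few.

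Immune genes were described around HLA-DRA, MX1 and CD68. HLA-DRA, a chain of the MHC class II molecule by which professional cells present antigen, ranged from 2.62 to 4.94 with a median of 3.51 over 90 arrays (SD 0.41), and 333 probes rose with it (2.63%) while 293 fell (2.31%). The total of 626 ranged from 439 in the deposited table to 6471 with normexp. All 5 other class II genes rose, HLA-DMA by 0.32 (SE 0.02, adjusted p = 1.25e-18), HLA-DMB by 0.36 (SE 0.03, adjusted p = 3.89e-16), HLA-DQA1 by 0.33, HLA-DQB1 by 0.28 and HLA-DOA by 0.27, the last over 65 arrays, and 4 of the 5 rose with normexp. The class II list had the highest median correlation of the lists, 0.72, with 15 of 15 pairs positive. Of the macrophage genes 8 of 12 rose and 0 fell, of the lymphocyte and pan-leucocyte genes 4 of 7 rose and 0 fell, and of the interferon genes 12 of 16 rose and 0 fell. PTPRC, the common antigen CD45 of leucocytes, rose by 0.45 (SE 0.04, adjusted p = 4.22e-15). The macrophage list had a median correlation of 0.46, and the leucocyte list 0.03.

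MX1, an antiviral GTPase induced by interferon, ranged from -0.21 to 5.02 with a median of 1.26 over 90 arrays (SD 0.96), and 9 arrays were more than 2 above the median. With it 167 probes rose (1.32%) and 54 fell (0.426%). The total of 221 was 156 with normexp and 753 without a slide term, and without the 2 arrays farthest from the median, LM replicates 1 and 88, 165 rose and 135 fell. Of the 15 other interferon genes 12 rose and 0 fell. ISG15 (a ubiquitin-like modifier) rose by 0.86 per SD of MX1 (SE 0.04, adjusted p = 1.95e-27), PLAC8 by 0.98 (SE 0.07, adjusted p = 2.98e-19), IFIT1 by 0.46 (SE 0.03, adjusted p = 6.40e-18), LGALS3BP by 0.76 (SE 0.06, adjusted p = 7.00e-16), OAS1 by 0.51 and MX2 by 0.37. The antigen-processing genes TAP1 and PSMB9 rose by 0.31 and 0.37. IRF7, DHX58 and PARP14 were not called. The list had a median correlation of 0.42. Of the class II genes 5 of 6 rose with MX1.

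CD68, a lysosomal marker of macrophages, was dim and followed the slides. It ranged from -2.53 to -0.46 with a median of -1.44 over 89 arrays, 91.0% of its variance lay between slides, and its SD within slides was 0.18. With it 636 probes rose (5.01%) and 83 fell (0.654%), and 0 of the 11 other macrophage genes was called by limma, nor did any pass at an unadjusted p under 0.05 (0 of 11). At that unadjusted p, 2417 of all 12685 probes tested passed in either direction. With normexp 4 of the macrophage genes rose and 3 fell, and on usable-spot centring 3 rose. With normexp the total was 9183, and usable-spot centring raised the calls summed over all fits, as given at the end. The counts in these settings thus cannot be read as particular to the macrophage genes. With the C index as an added term the counts were 8 and 1, and without the 2 arrays farthest from its median, LM replicates 14 and 64, they were 99 and 9. With HLA-DRA 8 of 12 macrophage genes rose, and between 6 and 10 did so under the other settings. The difference between CD68 and HLA-DRA was not tested.

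For the vessel and blood genes the number of partners turned on the centring. CDH5, the cadherin of endothelial junctions, ranged from 0.62 to 2.16 with a median of 1.38 over 90 arrays (SD 0.29), and 5 probes rose with it (0.0394%) while 2 fell (0.0158%). RAMP2 (of the adrenomedullin receptor) rose by 0.10 (SE 0.02, adjusted p = 0.0081) and NOS3 (the endothelial nitric oxide synthase) by 0.12 (SE 0.03, adjusted p = 0.0486), which were 2 of the 13 other endothelial genes. Without the 2 arrays farthest from the median of CDH5, LM replicates 47 and 76, 1 probe was called in place of 7, and 0 of the 13 by limma. On usable-spot centring 7189 probes were called and 12 of the 13 rose, and with the C index 5 probes rose and 6 fell. The endothelial list had a median correlation of 0.24 with 86 of 91 pairs positive, and the list of vessel smooth muscle and pericytes 0.13. HBA2, an alpha globin of red cells, ranged from -1.64 to 1.61 with a median of 0.33 over 90 arrays (SD 0.64). With it 1 probe rose (0.00788%) and 0 fell by limma, and 808 probes passed at an unadjusted p under 0.05. On usable-spot centring 1741 probes were called, and with normexp the single call was lost. The HBA2 probe used here was the one present on most arrays, not the brighter one ranked above.

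MT-CO1, a subunit of cytochrome oxidase coded by the mitochondrial genome, ranged from 5.64 to 7.80 with a median of 7.05 over 90 arrays (SD 0.29), and 106 probes rose with it (0.836%) while 117 fell (0.923%). Of the 9 other mitochondrial genes 0 were called by limma and 7 rose at an unadjusted p under 0.05. At that unadjusted p, 2278 of all 12682 probes tested passed in either direction. With normexp 8 of the 9 rose, and 8 of the 9 also rose on usable-spot centring. With normexp 8328 probes were called in all, most of those kept. Usable-spot centring also raised the calls summed over all fits, as given at the end. Neither count of 8 of 9 can thus be read as particular to these genes. In the main setting the 10 genes as a list had a median correlation of 0.60 with 45 of 45 pairs positive, the lowest of them pairs of MT-CO1. For the list the brightest probe of MT-CO1 was used, and for the fit the one present on most arrays. Nuclear genes of the mitochondrion, SDHC (of respiratory complex II) and SLC25A11 (the oxoglutarate carrier), rose by 0.20 (SE 0.04, adjusted p = 0.0044) and 0.11 (SE 0.03, adjusted p = 0.0178). With the C index the counts were 25 and 23, and with normexp the total was 8328. Without LM replicate 87 they were 175 and 180, and without the 2 arrays farthest from the median, LM replicates 81 and 63, they were 204 and 211. A median of 71.4% of the variance of the mitochondrial genes lay between slides, more than the 39.4% over all probes, so most of their spread was removed with the slides.

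**Figure D4:**
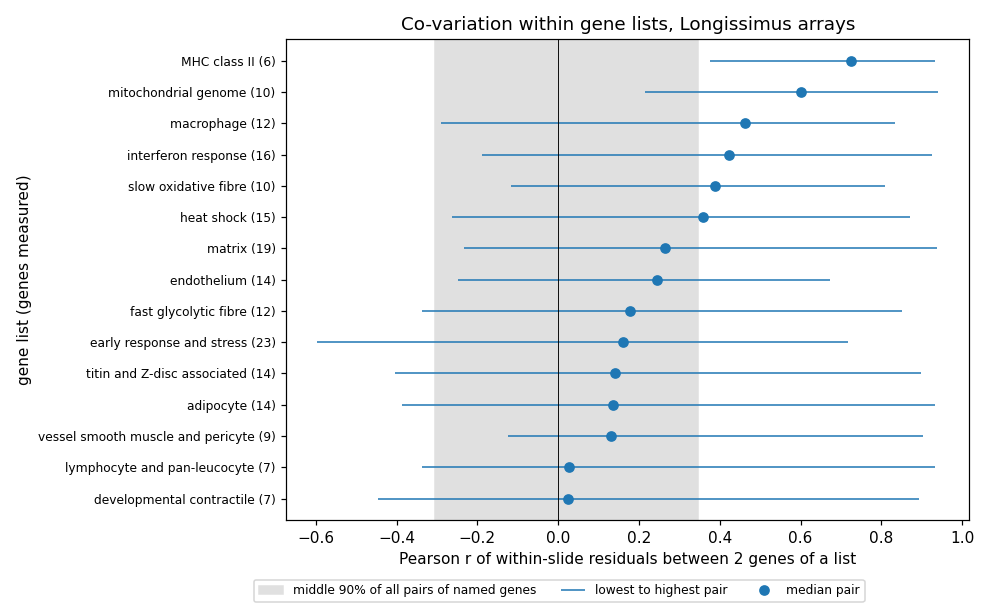
Pearson correlation of within-slide residuals between pairs of genes of 15 lists, with the number of genes measured in parentheses, the median pair as a point, the lowest to the highest pair as a line and the middle 90% of all pairs of named genes in grey. The MHC class II, mitochondrial, macrophage, interferon, slow oxidative and heat shock lists have medians above the grey band, and every list but the first reaches into it.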

How the data were processed

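The scanner's output deposited by the authors gives, per the file headers, a processed intensity for each spot of single-colour Cy3 arrays, after Feature Extraction removed the background and spatial trends, with no normalization across arrays. A table on the natural log scale, deposited by the authors, served as an alternative. Control spots were left out, the log2 intensity was centred on the median of all 15198 probes of the array, and spots near background (15.8%), of uneven signal (0.656%) or at saturation (0.122%), by the scanner's marks, were then set to missing. Probes usable on more than 50% of the 90 LM arrays were kept. The number of arrays and the signal over background limit the precision. Per-sample columns left unused numbered 0.

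Slide effects and associations with 14 genes were fitted with the linear model and moderated tests of limma 3.58.1 in R 4.3.3, with slide as a fixed factor, and p values were adjusted by the Benjamini-Hochberg method over all probes. Among 12685 simulated probes, 66% of those tied to a gene by 0.5 SD and 99% of those tied by 1 SD were called, and 5.71% of the calls were false. The simulated errors were independent between probes, without differences shared across an array such as the C index. The 5.71% thus does not give the false share among the calls above. Values were read with Python 3.11.15 and pandas 2.3.3. The lists (16, with 189 genes, 1 of them with a single gene) and the 14 genes were chosen with earlier results of these data known.

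Named in the text are the 10 brightest named probes, the 15 genes of highest and 5 of lowest within-slide SD among probes on at least 72 arrays, the 5 of highest share between slides, up to 5 rising and 3 falling genes per fit, list members and up to 3 probes without a symbol of highest SD. AJ938358.1_528, CF792920.1_1114, BQ598889.1_523, CXORF15, TMEM27 and EIF1AY were added after their values were seen. A list used the brightest probe of each gene. The C index is the mean of 221 probes with 8 or more C in the first 15 bases minus that of 4611 with 2 or fewer.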

Additional observations from a re-analysis of the deposited data

How the results depend on the processing

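Of 98 pairs of a described gene and a named partner, 63 were rising and 35 falling. Under 14 other settings, 51 of the 63 rising pairs were called in every setting that could give them, including all 45 of ADIPOQ, FOS, MYL2, MYH3, ANKRD1, COL1A2, HLA-DRA, MX1 and HSPB1, and 8 of the 35 falling pairs. The slope changed sign for CD68 with ERLEC1 (0.013) and MYH1 with RAP2A (0.0307) on centring by usable spots, for CD68 with FLCN without a slide term (-0.0112) and with normexp (-0.00720), for HLA-DRA with LMF1 (0.0181) and VDAC2 (0.0461) and MT-CO1 with AGMAT (-0.0298) with normexp, and for MYH1 with KDM6A (0.0680) and RAP2A (0.0444) after quantile normalization. The associations numbered 8008 over the 14 fits, and 5090 in the deposited table, 20645 without a slide term, 51357 with normexp, 14484 with slide as a random block and 32269 on usable-spot centring. The 7876 probes that differed between slides became 3971 of 6903 (57.5%) in the deposited table. The median SD of 0.26 became 0.297 in the deposited table, 0.283 with poor spots kept, 0.208 as a median absolute deviation, 0.304 without a slide term and 0.292 on usable-spot centring. Median correlations moved to 0.457 (endothelium), 0.389 (matrix), 0.666 (mitochondrial genome) and 0.309 (vessel smooth muscle) on usable-spot centring, to 0.374 (fast glycolytic), 0.356 (macrophage), 0.742 (mitochondrial genome) and 0.247 (titin and Z-disc) with normexp, to 0.187 (macrophage) and 0.809 (MHC class II) over probes on at least 90% of arrays, to 0.52 (mitochondrial genome) by quantile normalization and to 0.0266 (adipocyte) in the deposited table. Over all settings the members that rose numbered 9 to 12 of 14 (heat shock with HSPB1), 11 to 12 of 15 (interferon with MX1), 10 to 15 of 18 (matrix with COL1A2), 4 to 8 of 9 (slow with MYL2), 0 to 9 of 11 (fast with MYH1), 0 to 8 of 9 (mitochondrial with MT-CO1) and 0 to 12 of 13 (endothelium with CDH5). The highest counts with MYH1, MT-CO1 and CDH5 came in settings that called 9211, 8328 and 7189 probes, most of those kept. They cannot be read as particular to those lists. Without LM replicate 87 the counts were 7758 and 7856 and the median SD 0.254. Usable-spot centring, that replicate and the 2 farthest arrays were chosen after seeing the data, and the causes were not tested. No paired analysis was possible because all fits lie within LM.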
